A study of Mus musculus with 21 samples.

Results

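The ephrin ligands are the 8 genes Efna1, Efna2, Efna3, Efna4, Efna5, Efnb1, Efnb2 and Efnb3, taken by symbol from a table of 24047 genes in the mouse sonic hedgehog medulloblastoma line SMB21. The family was chosen by the 2 h comparison, since Efna3 was among the genes that rose most after 2 h of quisinostat, so values of that comparison are given as a description, with no test. All 8 were in the table and passed the filter on low counts. The 7 groups, of 3 libraries each, were cells given JNJ (quisinostat, an inhibitor of histone deacetylases) for 2 h, cells given the solvent DMSO for 2 h, the same pair at 24 h, and cells given a virus coding for a hairpin against Hdac1 (shHdac1), against Hdac2 (shHdac2) or against luciferase (shLuc), with puromycin selection. All groups were the same line grown in DMEM/F12 with B-27, and neither the dose of JNJ nor the number of hairpins per gene is stated in the labels. The labels do not tell if the 3 replicates were grown separately, so a p-value here reflects library-to-library spread that could be technical.

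Ephrins are ligands that stay on the surface of the cell that makes them and bind Eph receptor tyrosine kinases on a neighbouring cell. Ephrin-A ligands (Efna genes) are held by a glycolipid anchor and bind mainly EphA receptors, whereas ephrin-B ligands (Efnb genes) span the membrane, bind mainly EphB receptors and have a cytoplasmic tail that signals back into their own cell. In the nervous system these contacts repel growing axons and set boundaries between groups of cells, and in the developing cerebellum ephrin-B signalling bears on the migration of granule cells, the lineage from which sonic hedgehog medulloblastoma arises.

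Efna1, Efna3 and Efna4 lie next to each other on chromosome 3 and Efnb1 lies on the X chromosome. RefSeq promoter windows (GRCm38.p6, 250 bases before to 50 after the start) were matched by symbol for 7 of the 8 genes. They are shown for the 3 genes called at 24 h, Efna3, Efna4 and Efnb1, and for Efna1, which lies beside Efna3 and was higher at 2 h. Capitals mark the GC box, GGGCGG or its reverse complement CCGCCC. The windows are chr3:89280902-89281201, chr3:89322890-89323189 and chr3:89337979-89338278, all on the minus strand, and chrX:99135811-99136110 on the plus strand. For Efna1 and Efna3 these are the first of 2 windows.
Efna1: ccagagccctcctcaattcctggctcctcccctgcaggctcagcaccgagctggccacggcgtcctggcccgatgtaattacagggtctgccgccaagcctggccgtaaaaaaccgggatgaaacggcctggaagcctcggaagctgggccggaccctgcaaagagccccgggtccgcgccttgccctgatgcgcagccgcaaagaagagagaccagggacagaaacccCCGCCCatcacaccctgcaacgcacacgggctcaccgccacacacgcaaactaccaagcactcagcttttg
Efna3: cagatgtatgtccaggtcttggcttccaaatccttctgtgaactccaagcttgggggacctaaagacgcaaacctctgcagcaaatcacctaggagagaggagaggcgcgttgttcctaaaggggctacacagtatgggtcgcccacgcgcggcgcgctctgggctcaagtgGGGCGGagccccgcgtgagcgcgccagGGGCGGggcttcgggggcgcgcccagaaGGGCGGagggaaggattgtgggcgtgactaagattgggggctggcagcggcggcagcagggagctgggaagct
Efna4: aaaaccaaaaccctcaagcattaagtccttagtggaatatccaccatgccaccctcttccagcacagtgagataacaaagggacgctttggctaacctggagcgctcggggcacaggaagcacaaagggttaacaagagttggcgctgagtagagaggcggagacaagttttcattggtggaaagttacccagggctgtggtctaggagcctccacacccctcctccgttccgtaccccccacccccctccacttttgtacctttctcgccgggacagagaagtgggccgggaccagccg
Efnb1: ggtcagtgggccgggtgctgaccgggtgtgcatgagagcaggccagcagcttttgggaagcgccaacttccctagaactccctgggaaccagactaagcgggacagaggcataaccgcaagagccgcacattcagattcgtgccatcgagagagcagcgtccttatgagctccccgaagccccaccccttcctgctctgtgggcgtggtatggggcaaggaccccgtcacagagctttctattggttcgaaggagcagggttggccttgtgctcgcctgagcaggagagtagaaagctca

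Both Efna3 windows held 3 GC boxes each. The Efna1 window shown held 1 GC box, and its other window 2. The Efna4 and Efnb1 windows held none. Of all 32851 windows, 35.7% held a GC box. The letters CCAAT, on either strand, were found in the windows shown of Efna3, Efna4 and Efnb1 but not in either window of Efna1, and in 37.4% of all windows. The GLI motif GACCACCCA was found in no window of a member and in 0.253% of all windows. The letters of these 3 motifs cannot contain one another, and a match is a description of the sequence.

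Libraries held 23094799 to 39341784 counts (median 31426312), at which 3 counts correspond to 0.0776 to 0.126 CPM (counts scaled to the effective library size). The first principal component of the shRNA libraries (43.4% of the variance) put replicate 3 of each shRNA group (-40.8 to -20.7) apart from replicates 1 and 2 (2.59 to 26.8), and results in those groups are given with and without them. Granule lineage markers were all above 1 CPM on average in every group (8 of 8), as the label of the line has it. Their summed level was 779 to 971 CPM in JNJ 24 h libraries, against 1438 to 1583 CPM in DMSO 24 h libraries. Oligodendrocyte markers summed to 2.40 to 4.20 CPM with JNJ at 24 h (Mog at 0) and 4.23 to 5.64 CPM with DMSO (Mag at 0). Microglial markers summed to 1.34 to 2.44 CPM with JNJ and 1.35 to 1.73 CPM with DMSO (Aif1 and Itgam at 0). Endothelial markers summed to 3.71 to 5.09 CPM with JNJ and 0.875 to 9.89 CPM with DMSO (Tie1 at 0). Single endothelial markers differed: Kdr averaged 2.52 ± 0.731 CPM with JNJ and 0.168 ± 0.129 CPM with DMSO. Cdh5 averaged 1.38 ± 0.865 CPM with JNJ and 3.60 ± 5.08 CPM with DMSO, and Pecam1, Emcn and Tie1 were under 1 CPM in both groups.

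After 24 h of JNJ, 3 of the 8 ligand genes rose and none passed the test as lower. They were Efna3 and Efna4, both ligands of EphA receptors, and Efnb1, a ligand of EphB receptors. Across all 14467 genes tested, 33.1% were called at 24 h and 18.1% were called higher, against 3 of 8 members (37.5%), so the number of members called was near the background. With scaling by library totals alone, all genes split into 3170 higher and 1470 lower, against 2613 higher and 2178 lower as reported. The median log2 change was 0.53 over the 8 members and 0.0126 over all genes. Libraries of both groups did not overlap for 4 of 8 members, against 55.5% of all genes. In bulk RNA, a change in how many cells express a gene and a change in RNA per cell cannot be told apart. Fibroblast markers summed to 21.4 to 35.6 CPM in JNJ 24 h libraries and 8.61 to 13.0 CPM in DMSO 24 h libraries (3 and 2 of 5 markers above 1 CPM on average), and astrocyte markers to 107 to 142 CPM with JNJ and 222 to 298 CPM with DMSO (3 of 5 in both). Among fibroblast markers at 24 h, Col1a1 averaged 17.4 CPM with JNJ and 0.867 CPM with DMSO. Pdgfra (7.63 and 7.28 CPM) and Lum (3.73 and 2.61 CPM) differed less, and Col1a2 and Dcn were under 1 CPM in both groups. Most of the astrocyte sum was Slc1a3 (116 CPM with JNJ and 230 CPM with DMSO). Gfap and S100b were lower with JNJ, whereas Aldh1l1 (0.459 and 0.101 CPM) and Aqp4 (0.0903 and 0.0719 CPM) were higher. No marker of these 2 lists was at 0, and their part in these results was not tested.

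Efna3 stood at 89.6, 105 and 124 CPM in the JNJ 24 h libraries, against 18.4, 10.1 and 11.6 CPM in the DMSO 24 h libraries. Each JNJ library was far above every DMSO library. The difference was 7.95-fold (log2 2.99, SE 0.28, 95% interval 2.39 to 3.59, edgeR quasi-likelihood adjusted p = 3.35e-05), and leaving out any 1 library gave log2 values of 2.81 to 3.28. Efna3 shares 344 exonic bases with the antisense gene Gm15998, which has no row in the table. Since no source used here gives the strand counted, reads of the pair cannot be told apart.

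Efna4 was at 87.7, 92.1 and 96.6 CPM in the JNJ 24 h libraries and at 37.5, 43.3 and 32.6 CPM in the DMSO 24 h libraries. The groups did not overlap, and the JNJ libraries lay within a narrow range. The rise was 2.44-fold (log2 1.29, SE 0.29, edgeR adjusted p = 0.00533). Efna4 shares 168 exonic bases with the antisense gene 4731419I09Rik, with the same uncertainty as for Efna3. Efnb1, which encodes a ligand whose loss in mice and humans disturbs skeletal and craniofacial patterning, was at 57.8, 64.8 and 67.3 CPM with JNJ and at 29.8, 32.2 and 34.5 CPM with DMSO. The groups were again apart, by 1.97-fold (log2 0.98, SE 0.16, edgeR adjusted p = 0.000842).

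The other 5 ligands did not pass the test at 24 h. Efna2 was at 6.01, 6.98 and 8.36 CPM with JNJ, against 10.0, 11.3 and 11.2 CPM with DMSO. All JNJ libraries were below all DMSO libraries (log2 -0.61, SE 0.24, edgeR adjusted p = 0.069), and with the replicate number as a block the gene was called lower (log2 -0.62, adjusted p = 0.035), where 45.8% of all genes were called. DESeq2 (adjusted p = 0.046) and a fit of only the compared groups (adjusted p = 0.0435) called it lower as well. Efna1 averaged 17.5 ± 2.67 CPM with JNJ and 13.5 ± 3.94 CPM with DMSO (SD, n = 3 each), with overlapping groups and a 95% interval of the log2 difference from -0.35 to 1.10. Efna5, a ligand known for topographic mapping of retinal axons, averaged 23.1 ± 1.88 CPM with JNJ and 25.6 ± 3.20 CPM with DMSO, with an interval from -0.70 to 0.42. Efnb2, known for its part in blood vessel formation, averaged 7.63 ± 3.01 CPM with JNJ and 5.84 ± 2.10 CPM with DMSO (interval -0.52 to 1.28). Efnb3, a midline barrier to axons in the mouse spinal cord, averaged 3.66 ± 1.06 CPM with JNJ and 2.30 ± 1.10 CPM with DMSO (interval -0.45 to 1.80). The edgeR adjusted p of these 4 genes lay between 0.351 for Efnb3 and 0.709 for Efna5.

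**Figure D1:**
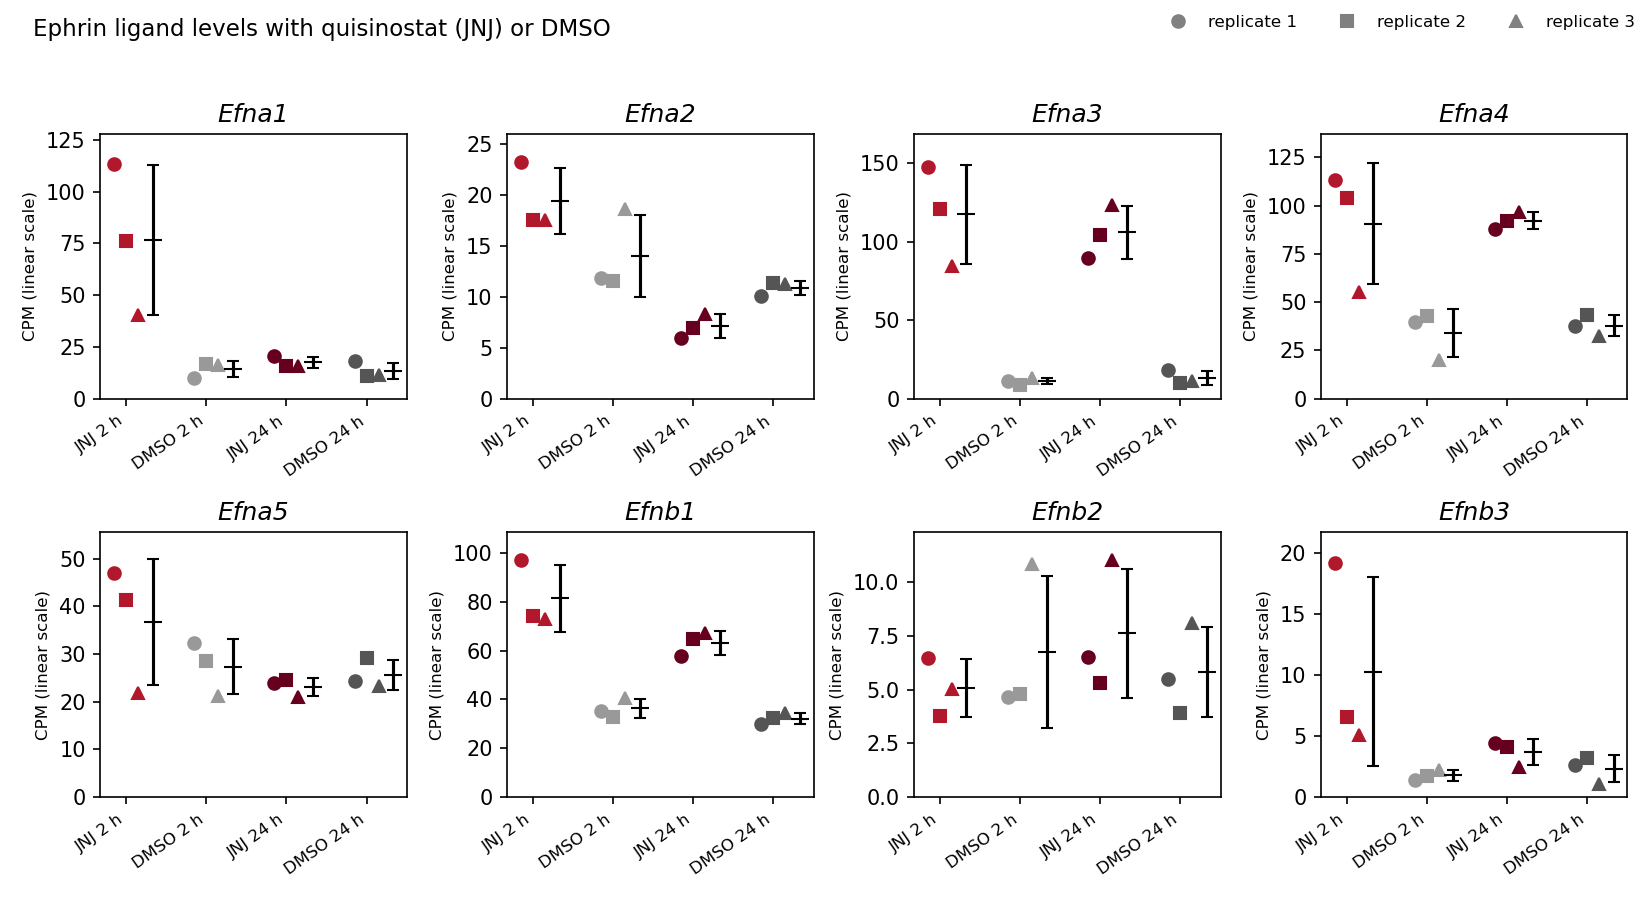
CPM (linear axis from 0) of the 8 ephrin ligand genes in each library of the JNJ and DMSO groups, with the mean and SD of 3 libraries in black beside the points. Efna3 is at 84.7 to 148 CPM in both JNJ groups and at 9.02 to 18.4 CPM in both DMSO groups, whereas Efna1 and Efnb3 are well above DMSO at 2 h and overlap it at 24 h.

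The comparison at 2 h chose the family and is described only. The median log2 value was 1.29 over the 8 members and 0.0319 over all genes. Efna3 was at 148, 121 and 84.7 CPM with JNJ, against 11.5, 9.02 and 13.0 CPM with DMSO, a 10.5-fold difference (log2 3.40, SE 0.28). Efna1, the ligand first found as a gene induced by tumour necrosis factor, was at 113, 76.1 and 40.5 CPM with JNJ and at 10.1, 16.6 and 16.4 CPM with DMSO. That is 5.34-fold (log2 2.42, SE 0.35), with no overlap between the groups. Efna4 was at 113, 104 and 55.2 CPM with JNJ and at 39.8, 42.8 and 20.0 CPM with DMSO (log2 1.41, SE 0.30).

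Efnb1 was at 97.2, 74.3 and 72.8 CPM with JNJ for 2 h and at 35.2, 32.97 and 40.7 CPM with DMSO (log2 1.17, SE 0.16). Efnb3 was at 19.2, 6.58 and 5.08 CPM with JNJ and at 1.40, 1.69 and 2.22 CPM with DMSO. Replicate 1 carried much of that difference: log2 was 2.54 (SE 0.54) with it and 1.72 without it. Efna2, Efna5 and Efnb2 overlapped between the groups, with log2 differences of 0.47, 0.42 and -0.41. Among the JNJ 2 h libraries, replicate 1 was the highest for all 8 members and replicate 3 the lowest for 7. The same libraries stood at 20.4, -3.60 and -18.1 on the first principal component of the 12 drug libraries, on which JNJ 24 h libraries lay at 65.9 to 76.8 and DMSO libraries at -45.2 to -26.1. Whether this bears on the members' values was not tested.

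Set beside each other, the log2 changes at both times differed by less than the standard error of the difference for Efna4 and Efnb1, and by little more for Efna3. The differences (24 h minus 2 h) were -0.40 (SE 0.36) for Efna3, -0.12 (SE 0.41) for Efna4 and -0.19 (SE 0.23) for Efnb1. Efna1 and Efnb3 were nearer to DMSO at 24 h, by -2.04 (SE 0.48) and -1.87 (SE 0.74). Without JNJ 2 h replicate 1 the Efnb3 difference was -1.06. Efna2 differed by -1.09 (SE 0.34), Efna5 by -0.57 (SE 0.37) and Efnb2 by 0.79 (SE 0.59). The median difference was -0.49 over the 8 members and -0.05 over all genes. Leaving out replicate 1 of the JNJ 2 h group moved the members' median to -0.28, leaving out its replicate 3 moved it to -0.72, and upper quartile scaling gave -0.32. Since the 2 h libraries entered the choice of the family, these differences carry no test.

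**Figure D2:**
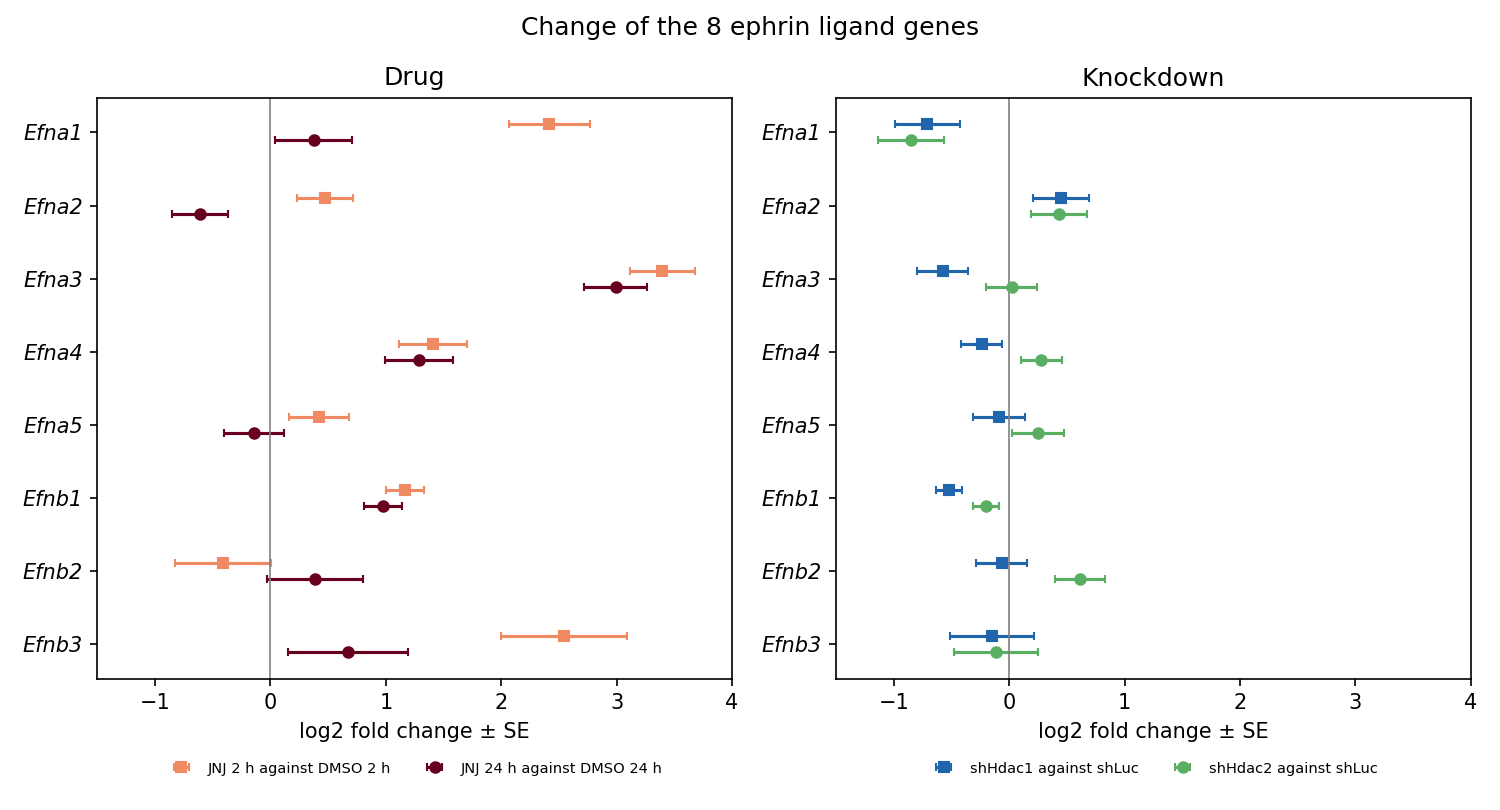
Log2 fold change with its standard error for each ephrin ligand gene, with JNJ against DMSO at 2 h and 24 h on the left and shHdac1 or shHdac2 against shLuc on the right, on the same axis. Efna3 is at 3.40 and 2.99 with JNJ, and all knockdown values lie between -0.85 and 0.61.

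Levels were compared between genes as CPM per kilobase of exon (GENCODE exon lengths). These lengths are of another build than mm9, and the annotation behind the counts is not known, so the order of genes is approximate. Reads of the antisense genes may also count toward Efna3 and Efna4. On this scale Efna4 had the highest mean of the 8 ligands in every group, at 57.6 ± 2.79 in JNJ 24 h and 23.6 ± 3.37 in DMSO 24 h. Efna3 was the second highest with JNJ at 24 h, at 44.8 ± 7.20, and the fifth with DMSO, at 5.64 ± 1.87 (SD, n = 3). At 24 h with JNJ all Efna4 libraries (54.9 to 60.4) were above all Efna3 libraries (37.9 to 52.3), which were above those of Efnb1 (17.7 to 20.7). With DMSO at 24 h, Efnb1 (9.14 to 10.6), Efna1 (5.93 to 9.85), Efna5 (5.75 to 7.24), Efna3 (4.26 to 7.77) and Efna2 (4.72 to 5.32) followed Efna4 (20.4 to 27.1), and each of these neighbours overlapped except Efna4 and Efnb1. Efnb2 and Efnb3 were lowest in both groups, at 1.59 ± 0.63 and 1.15 ± 0.33 with JNJ and at 1.22 ± 0.44 and 0.723 ± 0.347 with DMSO. The summed ephrin-A level was 113 to 131 with JNJ and 42.6 to 51.8 with DMSO at 24 h. The summed ephrin-B level was 20.5 to 23.7 with JNJ and 11.1 to 12.6 with DMSO, with no overlap in either class. These sums mostly follow Efna3 and Efna4, and Efnb1 (means of 19.4 with JNJ and 9.87 with DMSO). The other ephrin-A genes did not rise together: Efna1 averaged 9.56 with JNJ and 7.38 with DMSO, Efna2 3.34 and 5.10, and Efna5 5.74 and 6.34.

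The knockdowns reduced their targets. Hdac1 was at 32.6, 28.6 and 30.5 CPM in shHdac1, against 88.8, 94.8 and 101 CPM in shLuc (log2 -1.63, edgeR adjusted p = 0.000165). With the replicate block in a fit of only these 2 groups the Hdac1 call was lost (log2 -1.63, adjusted p = 0.122), and 0 of 13289 genes were called. Hdac2 was at 49.1, 48.1 and 53.8 CPM in shHdac2, against 318 ± 23.1 CPM in shLuc (log2 -2.66, adjusted p = 3.49e-06). CPM of the shRNA set come from a fit of their own and are not compared with those of the drug set. Granule lineage markers summed to 1077 to 1187 CPM in shHdac1 and 1193 to 1216 CPM in shHdac2, against 1364 to 1502 CPM in shLuc, with both knockdowns below every shLuc library. Single markers differed: Atoh1 averaged 158 CPM in shHdac1 and 148 CPM in shHdac2, against 290 CPM in shLuc. Gli1 was higher in shHdac1 (194 against 186 CPM in shLuc). Neurod1 (87.6 against 63.2 CPM) and Zic2 (86.2 against 83.4 CPM) were higher in shHdac2 than in shLuc. Fibroblast markers summed to 7.73 to 17.1 CPM in shHdac1 and 19.4 to 36.3 CPM in shHdac2, against 20.6 to 30.6 CPM in shLuc (3 of 5 markers above 1 CPM on average in each). Astrocyte markers summed to 323 to 485 CPM in shHdac1 (Aqp4 at 0) and 295 to 412 CPM in shHdac2, against 280 to 314 CPM in shLuc (3 of 5 in each). Most of that sum was Slc1a3, at means of 322 CPM in shHdac1, 302 CPM in shHdac2 and 258 CPM in shLuc. Gfap averaged 23.7, 14.2 and 15.9 CPM in the same order, and Aqp4 and Aldh1l1 were under 1 CPM in each group. Their part in the values below was not tested.

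No ephrin ligand was called in either knockdown by edgeR's quasi-likelihood test, in which 0.749% of 13612 genes were called for shHdac1 and 1.68% for shHdac2 against shLuc. At an unadjusted p under 0.05 there were 3 members for shHdac1 (Efna1, Efna3 and Efnb1) against 12.4% of all genes, and 2 for shHdac2 (Efna1 and Efnb2), against 15.9%. DESeq2 called 1 member for shHdac1, where it called 4.26% of all genes, and 0 for shHdac2, where it called 6.55%. Efnb1 was at 23.3, 23.7 and 27.9 CPM in shHdac1, against 35.2, 36.3 and 36.1 CPM in shLuc. All shHdac1 libraries were below all shLuc libraries (log2 -0.52, SE 0.11, adjusted p = 0.0806). With the replicate block, which called 3.84% of all genes, it was called lower (log2 -0.53, adjusted p = 0.0252), as with DESeq2 (adjusted p = 0.00131). In shHdac2, Efnb1 was at 27.8, 32.6 and 33.4 CPM, also below every shLuc library (log2 -0.20, SE 0.11, adjusted p = 0.425).

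Efna3, which had the largest log2 change of the 8 ligands at 24 h of JNJ, was at 11.4, 10.4 and 13.1 CPM in shHdac1, at 19.9, 17.0 and 15.8 CPM in shHdac2 and at 20.0, 20.5 and 11.5 CPM in shLuc. Its log2 difference was -0.58 (95% interval -1.07 to -0.08, adjusted p = 0.321) for shHdac1 and 0.02 (interval -0.47 to 0.52, adjusted p = 0.978) for shHdac2, and replicate 3 of shLuc overlapped the shHdac1 libraries. Efna1 was at 12.3, 12.0 and 14.0 CPM in shHdac1, at 12.4, 11.0 and 11.2 CPM in shHdac2 and at 24.6, 26.9 and 10.9 CPM in shLuc. Here too replicate 3 of shLuc lay at the level of the knockdowns, and the differences were not called (log2 -0.71, adjusted p = 0.346 and log2 -0.85, adjusted p = 0.194). Without that library, shHdac1 was called lower for Efna1 (log2 -1.01, adjusted p = 0.00357), Efna3 (log2 -0.80, adjusted p = 0.015) and Efnb1 (log2 -0.52, adjusted p = 0.0295), and shHdac2 for Efna1 (log2 -1.15, adjusted p = 0.00331). All genes called without it were 11% for shHdac1 and 8.78% for shHdac2. Both knockdown groups kept their own replicate 3, which also stood apart on the first principal component (-34.0 in shHdac1 and -20.7 in shHdac2). The groups were thus not balanced for replicate 3 in this alternative.

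Efnb2 was at 8.80, 10.1 and 11.6 CPM in shHdac2, against 6.27, 6.10 and 7.59 CPM in shLuc. The groups did not overlap (log2 0.61, SE 0.22, adjusted p = 0.214), and the replicate block, which called 5.88% of all genes, called it higher (adjusted p = 0.0498). In shHdac1 it was at 5.66, 5.17 and 8.23 CPM, which overlapped shLuc. Efna2 averaged 9.94 ± 1.53 CPM in shHdac1 and 9.79 ± 3.24 CPM in shHdac2, against 7.26 ± 0.433 CPM in shLuc, with adjusted p = 0.521 and 0.435. Efna4, Efna5 and Efnb3 overlapped shLuc in both knockdowns, with log2 differences between -0.24 and 0.28. Groups did not overlap for 2 of 8 members in each knockdown, against 16.7% of all genes for shHdac1 and 21.2% for shHdac2. With replicate 3 of all 3 groups left out, an alternative chosen after the data had been seen, 5 members were called for shHdac1 and 6 for shHdac2, where 44.2% of all genes were called in each. Both comparisons share the shLuc libraries.

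Between the knockdowns, edgeR called no member, where 2.06% of all genes were called. At an unadjusted p under 0.05 there were 4 (Efna3, Efna4, Efnb1 and Efnb2), against 14.3% of all genes, and DESeq2 called 0, where it called 6.3% of all genes. Efna4 was at 30.8, 32.3 and 24.8 CPM in shHdac1, against 44.0, 43.8 and 38.1 CPM in shHdac2. The groups were apart (log2 -0.52, SE 0.18, adjusted p = 0.215), as were those of Efna3 (log2 -0.60) and Efnb2 (log2 -0.68), so that 3 of 8 members did not overlap, against 26.7% of all genes. The replicate block, with 6.51% of all genes called, called Efna4 (log2 -0.53, adjusted p = 0.0283) and Efnb2 (log2 -0.70, adjusted p = 0.0312) lower in shHdac1.

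**Figure D3:**
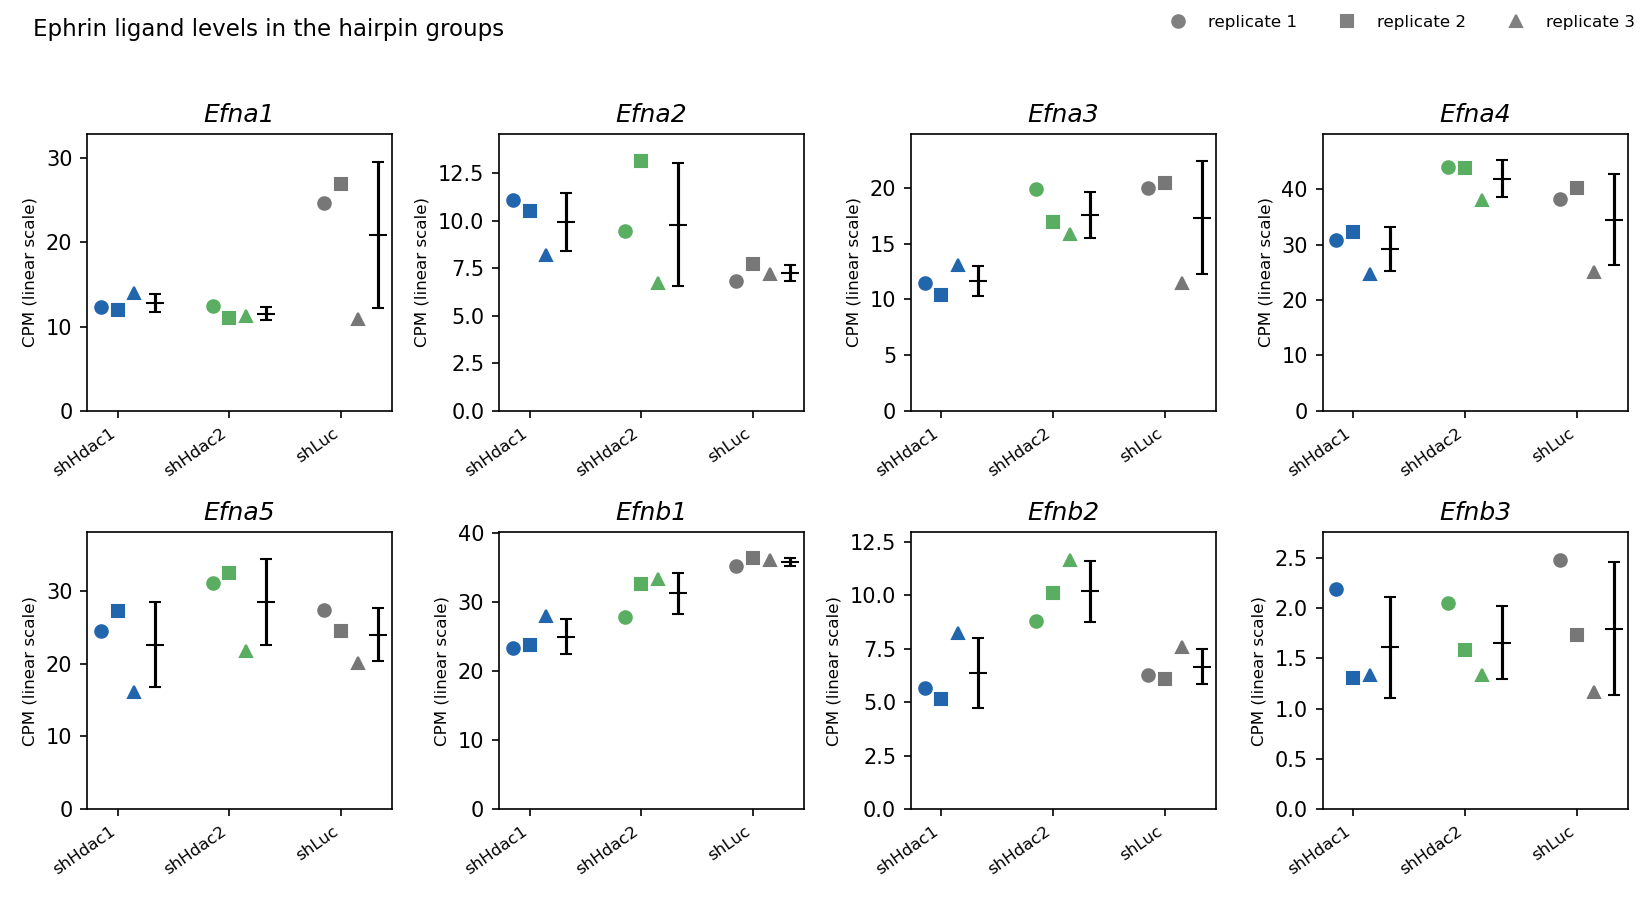
CPM (linear axis from 0) of the 8 ephrin ligand genes in each library of the shHdac1, shHdac2 and shLuc groups, with the mean and SD of 3 libraries in black. Replicate 3 of shLuc is far below the other shLuc libraries for Efna1 (10.9 CPM) and Efna3 (11.5 CPM), whereas the 3 shLuc libraries of Efnb1 lie at 35.2 to 36.3 CPM.

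Of the 14 Eph receptors, which the ligands bind, 13 passed the filter. Epha10 passed it only through JNJ libraries, in which it is high, and is described apart. At 24 h with JNJ, 5 of the other 12 rose (41.7%) and none was called lower, with a median log2 change of 0.51. Of all genes, 33.1% were called, or 31.6% of the 13518 that passed the filter through DMSO libraries, whose median log2 change was -0.037. Epha8 was at 119, 81.4 and 83.0 CPM with JNJ, against 28.8, 29.0 and 17.0 CPM with DMSO (log2 1.92, SE 0.33, edgeR adjusted p = 0.00104). Every JNJ library was above every DMSO library. Ephb1, an EphB receptor known from the crossing of retinal axons, was at 138, 112 and 202 CPM with JNJ and at 50.8, 35.1 and 75.4 CPM with DMSO (log2 1.49, SE 0.29, adjusted p = 0.00197). Ephb3 (log2 1.58, SE 0.39, adjusted p = 0.00836) and Epha2 (log2 1.51, SE 0.44, adjusted p = 0.019), a main receptor of ephrin-A1, rose by similar amounts. Epha2 was no longer called when JNJ 24 h replicate 3 (adjusted p = 0.0744) or DMSO 24 h replicate 2 (adjusted p = 0.0754) was left out.

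Ephb6, a receptor whose kinase domain is inactive, rose least (log2 0.67, SE 0.24, adjusted p = 0.0456), a call lost when any 1 library was left out (adjusted p = 0.0685 to 0.151) and with no filter on low counts (adjusted p = 0.0663). Epha10, another receptor with an inactive kinase domain, had 494, 150 and 161 counts with JNJ, against 3, 3 and 1 with DMSO. Nearly all its counts came from the JNJ libraries. The ratio of summed CPM was 131, with an exact 95% interval of 63.5 to 328 that covers counting error only. The other 7 receptors tested (Epha3, Epha4, Epha5, Epha6, Epha7, Ephb2 and Ephb4) were not called, with log2 values between -0.29 and 0.53.

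At 2 h, given as a description only, log2 values were 2.32 (SE 0.45) for Epha2, 2.06 (SE 0.40) for Ephb3 and 1.29 (SE 0.25) for Epha4, the largest apart from that of Epha10, with a median of 0.67 over the 13 receptors. In the knockdowns no receptor was called against shLuc by edgeR, where 0.749% of all genes were called for shHdac1 and 1.68% for shHdac2. At an unadjusted p under 0.05 there were 3 of 13 in each, against 12.4% of all genes for shHdac1 and 15.9% for shHdac2. DESeq2 called 1 for shHdac1, against 4.26% of all genes, and 2 for shHdac2, against 6.55%. Between the knockdowns edgeR called 1 of 13 receptors, where 2.06% of all genes were called. This was Epha5, lower in shHdac1, at 1.06, 1.26 and 0.837 CPM, against 6.50, 9.57 and 5.01 CPM in shHdac2 (log2 -2.74, SE 0.36, edgeR adjusted p = 0.00866). The shLuc libraries lay between them, at 2.27, 2.32 and 4.05 CPM.

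**Figure D4:**
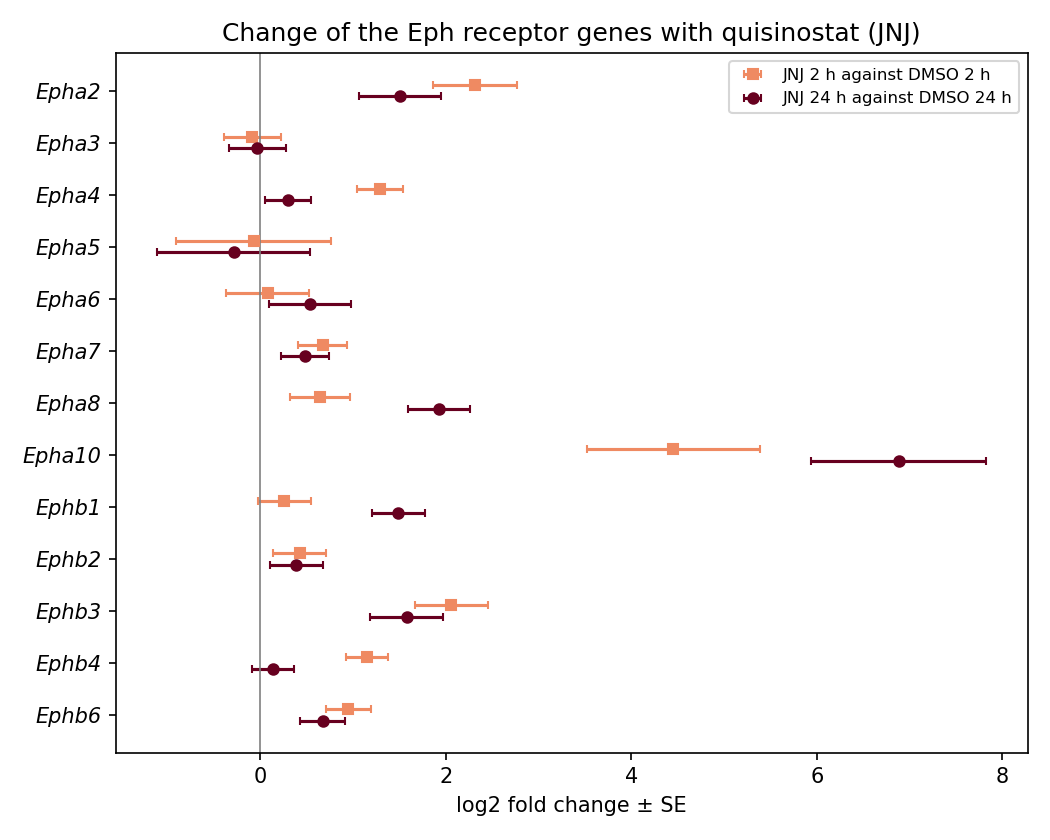
Log2 fold change with its standard error of the 13 Eph receptor genes tested, for the JNJ effect at 2 h and 24 h. Epha10 lies farthest to the right on few DMSO counts (7 at 24 h), and Epha8 and Ephb1 are at 1.92 and 1.49 at 24 h and at 0.64 and 0.26 at 2 h.

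Proteins that carry the signal inside the cell were taken as a list of 29 genes, with guanine nucleotide exchange factors, adaptors, Src and Abl family kinases, PDZ proteins and the protease Adam10, which cuts ephrins. Of these, 28 passed the filter, 1 of them (Arhgef16) only through JNJ libraries. At 24 h, 2 of the other 27 rose and 5 fell (25.9%, against 31.6% of all genes that passed through DMSO libraries), with a median log2 change of -0.06. Src, a kinase acting below both ephrins and Ephs, was at 24.7, 20.9 and 23.4 CPM with JNJ, against 61.8, 56.6 and 61.5 CPM with DMSO. The groups were far apart (log2 -1.38, SE 0.17, edgeR adjusted p = 0.00013). Abl2, a kinase of the Abl family, fell by less (log2 -0.62, SE 0.16, adjusted p = 0.011), a call that did not survive leaving out JNJ 24 h replicate 3 (adjusted p = 0.0526) or DMSO 24 h replicate 2 (adjusted p = 0.0512), or scaling by library totals (adjusted p = 0.0517). Vav3, a guanine nucleotide exchange factor, was at 9.36, 7.17 and 8.75 CPM with JNJ and at 2.88, 2.87 and 3.30 CPM with DMSO (log2 1.48, SE 0.30, adjusted p = 0.00252). Arhgef16, another exchange factor, had 87 counts with JNJ and 3 with DMSO over 3 libraries each, a ratio of summed CPM of 33.2 (exact 95% interval 11.0 to 164, counting error only).

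With the replicate block 13 of 28 partners were called at 24 h, where 45.8% of all genes were called, against 8 of 28 without it, where 33.1% were called. Both counts include Arhgef16. In the knockdowns against shLuc no partner was called by edgeR, with 0.749% of all genes called for shHdac1 and 1.68% for shHdac2. At an unadjusted p under 0.05 there were 8 of 27 for shHdac1, against 12.4% of all genes, and 7 of 27 for shHdac2, against 15.9%. DESeq2 called 4 for shHdac1, against 4.26% of all genes, and 3 for shHdac2, against 6.55%. Between the knockdowns edgeR called 1 of 27 partners, where 2.06% of all genes were called. This was Yes1, a kinase of the Src family, lower in shHdac1, at 46.1, 45.4 and 41.5 CPM, against 72.3, 69.5 and 65.9 CPM in shHdac2 (log2 -0.64, SE 0.10, edgeR adjusted p = 0.0164).

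Efna1, Efna3 and Efna4 are neighbours, and the protein-coding genes on both sides were read in RefSeq order. Trim46, Krtcap2, Dpm3 and Slc50a1 lie on the Efna1 side and Adam15, Dcst1, Dcst2 and Zbtb7b on the Efna4 side. Dcst1 did not pass the filter and Dcst2 was not analysed here. On the Efna4 side, Adam15, a membrane metalloprotease, averaged 155 ± 10.3 CPM with JNJ at 24 h and 53.6 ± 10.9 CPM with DMSO (log2 1.53, SE 0.34, edgeR adjusted p = 0.00439). Zbtb7b, a zinc finger transcription factor known from T cell development, averaged 60.4 ± 9.01 CPM with JNJ and 22.01 ± 4.28 CPM with DMSO (log2 1.46, SE 0.23, adjusted p = 0.000656). On the Efna1 side none of the 4 genes was called, with log2 values between -0.26 for Trim46 and 0.41 for Dpm3 and adjusted p from 0.225 to 0.799. Thus 2 of the 6 neighbours tested rose, against 18.1% of all genes, and in gene order the called genes were Efna3, Efna4, Adam15 and Zbtb7b.

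**Figure D5:**
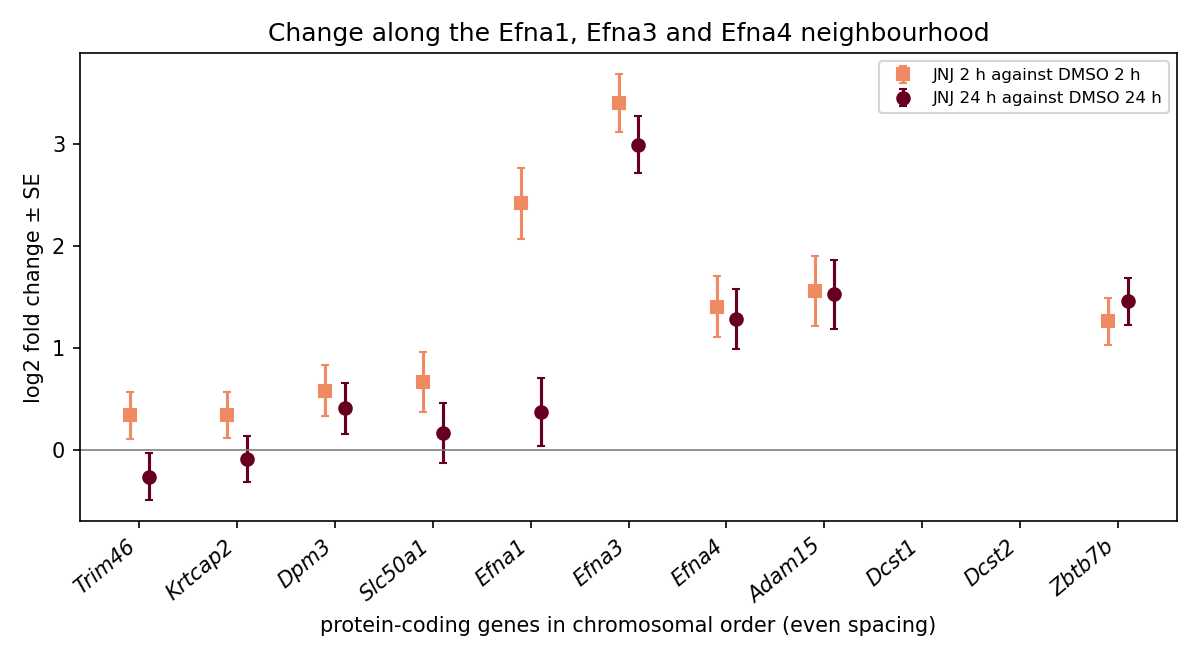
Log2 fold change with its standard error, with JNJ against DMSO at 2 h and 24 h, of the protein-coding genes around Efna1, Efna3 and Efna4 in chromosomal order (evenly spaced, not to scale). The 24 h values are near 0 on the Efna1 side and between 1.29 and 2.99 from Efna3 to Zbtb7b, with no value for Dcst1 and Dcst2.

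Over all 21 libraries, the ligands that rose at 24 h had a Pearson r of log2 CPM of 0.916 between Efna3 and Efnb1, 0.898 between Efna3 and Efna4 and 0.809 between Efna4 and Efnb1. Efna1 and Efnb3, neither of them called at 24 h, had an r of 0.852. Efnb2 had negative values with each of the other ligands, from -0.0785 with Efna3 to -0.415 with Efna5. Among 10316 genes of at least 5 CPM on average, those most like Efna3 were Reep6 (0.971), Rhpn2 (0.965), Pex26 (0.955), Acap3 (0.954) and Tmem50b (0.950). For Efna4 they were Lrrc3 (0.959), Stbd1 (0.952) and Pigs (0.948), and for Efnb1 Fam102a (0.970), Fam20c (0.950) and Tmem50b (0.947). These values describe 21 libraries that share the drug groups and their spread and include the libraries by which the family was chosen. For these correlations CPM were scaled by TMM over all 21 libraries together, apart from the fits of the drug and shRNA sets.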

How the data were processed

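RNA from 21 samples was made into stranded libraries (TruSeq Stranded mRNA) and sequenced as single-end reads, per the labels' protocols. The submitters' processing notes name STAR 2.5.1b and the build mm9. The authors deposited raw read counts per gene symbol. No source used here gives the strand counted, the annotation or how multimapping reads were handled. Of 24047 genes, 4115 had no count.

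The drug set (12 libraries) and the shRNA set (9) were each fitted with edgeR 4.0.16 (R 4.3.3), using filterByExpr (minimum count 10, minimum total 15; 14467 and 13612 genes), TMM scaling and quasi-likelihood tests, two-sided, with Benjamini-Hochberg adjustment over every gene in the fit and a threshold of 0.05 for a call. Group was the only term. A gene was taken to pass the filter only through JNJ libraries where fewer than 3 of the 6 DMSO libraries reached the minimum. The scripts were tested on simulated data. The members and lists were chosen with earlier results of these data known.

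Replicate numbers come from the labels. Deviations from the group mean correlated between same-numbered libraries at 0.606 to 0.65 at 24 h, 0.105 to 0.69 at 2 h, 0.254 to 0.343 (shHdac1 and shLuc), 0.272 to 0.479 (shHdac2 and shLuc) and 0.541 to 0.833 (shHdac1 and shHdac2), all over 0.1, so the numbers were taken to pair libraries and a replicate block was fitted as an alternative. Replicates 1 and 2 of different shRNA groups correlated too, so there the number mainly parts replicate 3 from the others. At 2 h, DMSO replicate 1 correlated with JNJ replicate 1 at 0.105 and with JNJ replicate 2 at 0.25, so the pairing of replicate 1 is unclear at that time. The other alternatives were RLE, upper quartile and library totals, no filter, DESeq2 1.42.0, only the compared groups, and each library left out.

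Genes were named by a rule: all 8 members, Hdac1 and Hdac2, Eph receptors called in a comparison other than 2 h, the 2 called partners with the lowest p in each direction, the neighbours of Efna1, Efna3 and Efna4, and the genes most like the members called at 24 h. The receptors not called are named as well, beyond the rule. Floors cover counting error only.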

Additional observations from a re-analysis of the deposited data

Results flagged for a closer look

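In 2 genes beyond the ligands the effects of the 2 knockdowns differed by a test of the difference itself. It set shHdac1 against shHdac2 in edgeR's quasi-likelihood fit with adjustment over all genes. The 2 genes were 1 of 13 receptors and 1 of 27 partners tested, where 2.06% of all genes were called. Epha5, an Eph receptor, had a log2 difference of -2.74 (adjusted p = 0.00866), with a mean of 1.05 ± 0.212 CPM in shHdac1 and 7.03 ± 2.32 CPM in shHdac2 (SD, n = 3 each), lower in 3 of 3 libraries than in any shHdac2 library. Without shHdac1 replicate 1 its adjusted p was 0.0664. Yes1, a Src family kinase, had a log2 difference of -0.64 (adjusted p = 0.0164), with 44.3 ± 2.51 CPM in shHdac1 and 69.2 ± 3.23 CPM in shHdac2, again with no overlap. Its adjusted p was 0.0833 to 0.0932 when replicate 1 or 2 of either group was left out.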

How the results depend on the processing

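At 24 h, Efna3, Efna4 and Efnb1 were called higher under every alternative tried. The count of members called was 3 when any 1 library was left out, where 23.1% to 27.4% of all genes were called. It was 4 with DESeq2, with only the compared groups and with the replicate block, with Efna2 joining as lower (36.8%, 44.2% and 45.8% of all genes called). It was 6 with the block in only the compared groups, chosen after seeing the data, which added Efna1 and Efnb3 as higher (63.5% of all genes). Upper quartile and library totals moved the median log2 of all genes at 24 h to 0.12 and 0.17.

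In the knockdowns the counts were less stable. In the order shHdac1 against shLuc, shHdac2 against shLuc and shHdac1 against shHdac2, the replicate block called 1, 1 and 2 members, 1, 1 and 4 receptors and 2, 1 and 3 partners, and 13 partners at 24 h. With the block in only the compared groups there were 5 members, 10 receptors and 12 partners between the knockdowns, where 30.4% of all genes were called, and 16 partners at 24 h, where 63.5% were. DESeq2 called 1, 0 and 0 members, 1, 2 and 2 receptors and 4, 3 and 2 partners. RLE, upper quartile and library totals each called 1 partner for shHdac1, where 0.793%, 0.882% and 0.845% of all genes were called. Leaving out replicate 3 of all 3 groups, also chosen after seeing the data, called 5, 6 and 5 members, 10, 6 and 12 receptors and 16, 14 and 13 partners. Of all genes, 44.2%, 44.2% and 35.6% were called under that setting, in the same order. When single libraries were left out, shHdac1 against shLuc had 0 to 3 members, 0 to 1 receptors and 0 to 5 partners called (0.0145% to 11% of all genes). For shHdac2 against shLuc there were 0 to 1 members, 0 to 2 receptors and 0 to 1 partners (0.0872% to 8.78% of all genes). Between the knockdowns there were 0 to 2 receptors and 0 to 2 partners (0.217% to 1.98% of all genes), and at 24 h 3 to 6 partners (23.1% to 27.4%). Over all genes, 102, 229 and 280 were called as reported, 523, 801 and 886 with the block, 580, 892 and 857 with DESeq2, 5, 19 and 603 with only the compared groups, 0, 48 and 4086 with the block in those groups, and 1512 and 1212 without shLuc replicate 3. The cause was not tested.

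Signs turned only among values not called. With library totals Efna5 was at 0.0149 at 24 h. Without shLuc replicate 3 Efna3 was at -0.19 for shHdac2 and without replicate 3 of all groups at -0.12, and Efna2 between the knockdowns at -0.0696. With single libraries left out, log2 values ranged from -0.20 to 0.28 for Efna2 and -0.33 to 0.15 for Efnb3 between the knockdowns, from -0.19 to 0.16 for Efna3 and -0.33 to 0.19 for Efnb3 in shHdac2, and from -0.24 to 0.11 for Efna5, -0.30 to 0.0639 for Efnb2 and -0.44 to 0.15 for Efnb3 in shHdac1. With 1 library left out, the spread of the group is shared with the other groups. Efnb3, at 30 to 686 counts per library, had the widest interval of the 8 ligands in each comparison.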
